A study of Danio rerio with 2 samples.

Results

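Proneural and neuronal transcription factors of the basic helix-loop-helix (bHLH) family were followed in RNA from zebrafish hearts. The set was defined by name as neurod, neurod2, neurod4, neurod6a, neurod6b, neurog1, ascl1a, ascl1b, atoh1a and olig2. It was chosen with earlier results of these data known. All 10 names had a row among the 26126 Ensembl genes of the deposited count table, and 9 had at least 10 counts over both libraries. Hearts of kctd10 -/- fish and of wild-type fish, both of the AB background, were collected at 48 hours post fertilization, and 1 library was sequenced per genotype. kctd10 encodes an adaptor of the Cullin 3 ubiquitin ligase. The sources used here give neither the kind of mutation nor how many hearts were pooled.

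bHLH proneural factors bind E-box DNA as dimers with ubiquitous E proteins. They commit progenitors to a neuronal fate and switch on the Delta ligands, which activate Notch in neighbouring cells. Notch in turn induces many Her and Hes repressors, which silence proneural genes, while Id proteins lack a DNA-binding region and sequester the E proteins. Neurogenin, achaete-scute and atonal factors act early in this sequence, and NeuroD factors act later, as neurons differentiate. None of these factors is a marker of heart muscle, and which tissue their counts came from was not measured.

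The depth was 139099775 gene counts for the library labelled kctd10 mutant and 150001992 for the library labelled wild type. With 1 library per genotype there is no replicate check, and the adjusted p-values that the authors deposited rest on no replicates either. Each ratio sets the mutant library over the wild-type one, describes these 2 samples alone and carries no p-value. Intervals are exact 95% Clopper-Pearson intervals that cover counting error only, and amplified copies of 1 molecule are counted as if separate. A gene with at least 10 counts was called higher if all of its interval exceeded 1.5-fold, and lower if all of it was under the reciprocal of 1.5. kctd10 itself had 19942 counts in the library labelled mutant and 8226 in the library labelled wild type, a ratio of 2.57 (2.5 to 2.63). The mutated gene's own counts were thus not reduced and do not check the labels, so every direction below is between libraries as labelled. The heart muscle genes myl7 (252712 and 194884 counts in the libraries labelled mutant and wild type) and vmhc (455687 and 323839 counts) were abundant. Retinal genes that a heart does not use were counted too, such as crx (1479 and 16170 counts), which is a regulator of photoreceptor genes. Counts of different genes are not compared with each other, since no transcript lengths were used. Fewer cells of a type and less RNA per cell cannot be told apart in such samples.

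Of the 9 proneural bHLH genes with at least 10 counts, neurod and olig2 were lower in the library labelled mutant, 0 were higher and 7 met neither condition. Among all 24009 genes with at least 10 counts, 6.68% were lower and 5.99% were higher by the same rule. The median log2 ratio of the 9 genes was −0.24, against −0.00075 over all 24009 genes, and their log2 ratios ran between −1.30 and 0.39. The intervals of 5 of the 9 lay wholly below 1 and those of 2 wholly above it, while the intervals of the other 2 held 1. The share of all genes whose intervals exclude 1 was not counted. These intervals cover counting error only and are narrow for genes with many counts, so no trait of the set is read from them. The ratios were not uniform, and those of the paralogues neurod6a and neurod6b lay on either side of 1, although the interval of neurod6a held 1. Scaled to neuronal genes, as set out below, both paralogues were above 1 (1.40 and 1.96). Both were below 1 when scaled to heart muscle genes (0.579 and 0.808).

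**Figure D1:**
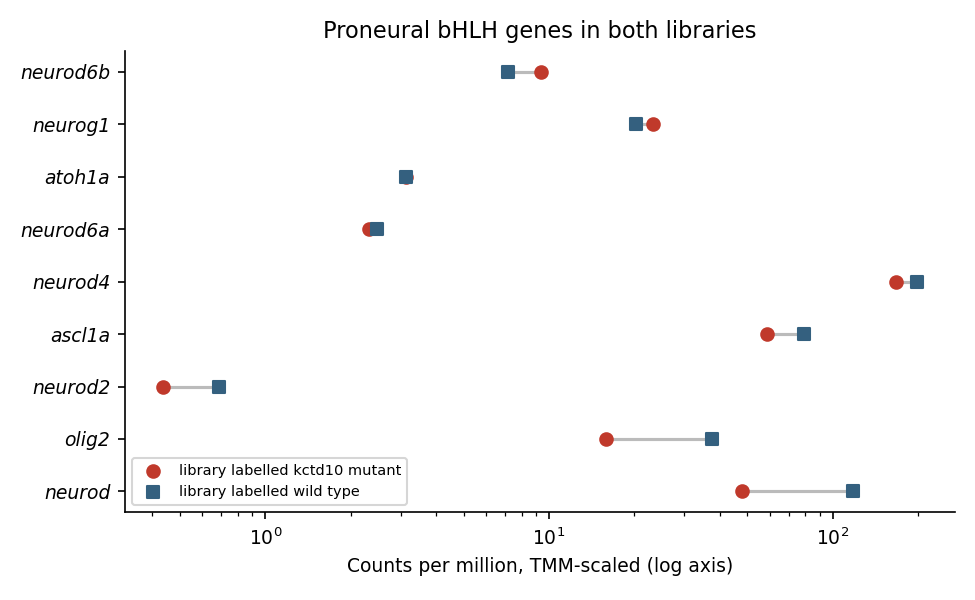
Level of each of the 9 proneural bHLH genes with at least 10 counts, in CPM (counts per 1000000, TMM-scaled) on a log axis, in the library labelled kctd10 mutant (circles) and the library labelled wild type (squares). Each grey line joins the 2 values of a gene, and the widest gaps are those of neurod (47.9 and 118) and olig2 (15.9 and 37.6), while the symbols of atoh1a overlap.

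neurod, named NEUROD1 in the current gene name table, drives neuronal differentiation and is also needed for photoreceptors and for hormone-producing cells of the pancreas. It had 6727 counts in the library labelled mutant and 17475 counts in the library labelled wild type, or 47.9 and 118 CPM (counts per 1000000 after TMM scaling of the libraries). Its ratio was 0.407 (0.396 to 0.419), a level 2.45-fold lower in the library labelled mutant. Of all genes with at least 10 counts, 3.89% had a lower log2 ratio than neurod, and of the 14685 genes with at least 1000 counts, 1.51% did. In the authors' deposited table of Ensembl genes, the fold of neurod was 0.406, with an adjusted p of 0.0647 from DESeq.

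olig2 directs the ventral spinal cord progenitors that give motor neurons and then oligodendrocytes. It had 2229 counts in the library labelled mutant, against 5588 counts in the library labelled wild type, which is 15.9 against 37.6 CPM. The ratio of olig2 was 0.422 (0.402 to 0.443), so its interval overlapped that of neurod. A lower log2 ratio than that of olig2 was found in 4.12% of genes with at least 10 counts and in 1.55% of those with at least 1000. The authors' deposited table gives olig2 a fold of 0.421 and an adjusted p of 0.116 from DESeq.

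The remaining NeuroD genes lay between those values and a modest excess. neurod4, which acts in differentiating neurons of the brain and retina, was counted 23552 times in the library labelled mutant and 29456 times in the library labelled wild type. Its ratio of 0.846 (0.832 to 0.861) lay below 1 but within the 1.5-fold limit. The interval of neurod4 did not overlap that of neurod, although both belong to 1 subfamily. neurod2, a gene of maturing neurons, had 61 counts in the library labelled mutant and 102 counts in the library labelled wild type. At this depth its ratio of 0.633 had an interval of 0.453 to 0.878, which spans the limit for a lower gene, so whether it passes was not detectable.

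neurod6a and neurod6b are zebrafish copies of NEUROD6, which in mouse marks postmitotic neurons of the dorsal forebrain. For neurod6a the library labelled mutant had 327 counts and the library labelled wild type had 368, a ratio of 0.940 (0.808 to 1.09). For neurod6b the counts were 1321 in the library labelled mutant and 1065 in the library labelled wild type, a ratio of 1.31 (1.21 to 1.42). The interval of neurod6b lay above that of neurod6a. neurod6b had the highest ratio of the set, and reads shared between such copies are uncertain because the authors' counting is not described in the sources used here.

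With TMM scaling, the early-acting proneural genes did not share a direction. neurog1, which zebrafish need for cranial and spinal sensory neurons, had 3268 counts (23.3 CPM) in the library labelled mutant and 3009 counts (20.3 CPM) in the library labelled wild type. The ratio of neurog1 was 1.15 (1.09 to 1.21). ascl1a, a proneural factor of the forebrain and hindbrain that is also needed for pituitary cells in zebrafish, had 8229 counts in the library labelled mutant and 11762 counts in the library labelled wild type. Its ratio was 0.740 (0.720 to 0.762), and 18.1% of genes with at least 10 counts had a lower log2 ratio. atoh1a, which specifies hair cells and the granule cell precursors of the cerebellum, was nearly equal, with 439 counts (3.13 CPM) in the library labelled mutant and 466 counts (3.14 CPM) in the library labelled wild type. Its ratio of 0.997 (0.873 to 1.14) became 1.02 when libraries were scaled by their totals. Scaled to neuronal genes, as set out below, neurog1, ascl1a and atoh1a all had ratios above 1 (1.71, 1.10 and 1.49). Scaled to heart muscle genes, all were below 1 (0.708, 0.456 and 0.614).

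**Figure D2:**
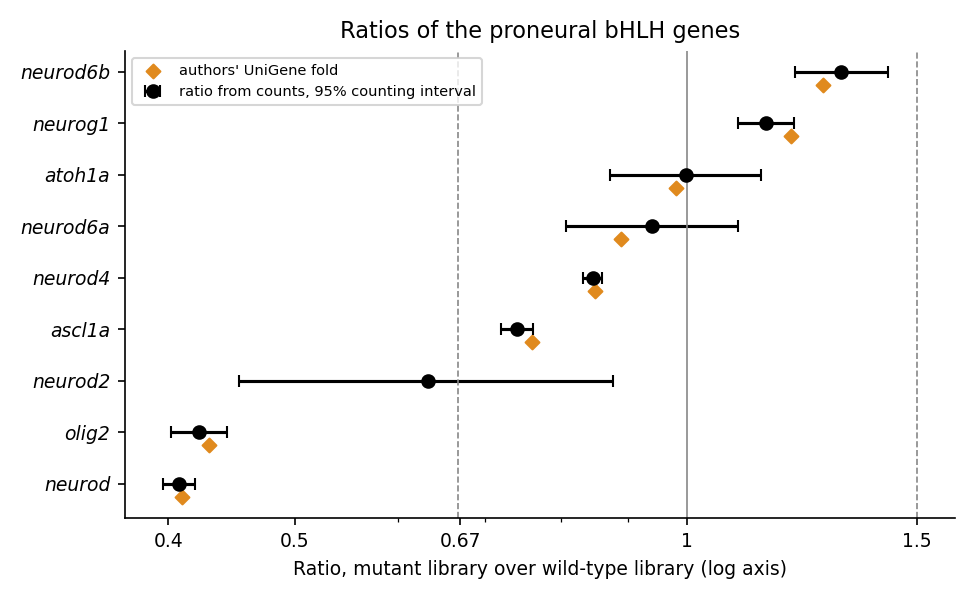
Ratio for each gene, mutant over wild-type library, on a log axis, with black points for the ratio from counts and bars for its exact 95% counting interval. Dashed lines mark 1.5-fold in either direction and orange diamonds the authors' UniGene folds, which neurod2 lacks. The intervals of neurod and olig2 lie left of the lower dashed line.

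ascl1b, which marks endocrine precursors of the pancreas in zebrafish together with neurod, could not be followed in the Ensembl counts. The row with its name held 0 counts in the library labelled mutant and 2 in the library labelled wild type, both under the floor of 3 counts, so no fold is given. The current gene name table gives the name ascl1b to another identifier, ENSDARG00000101628, which has 0 rows in the count table. By contrast, the authors' deposited table for UniGene clusters lists ascl1b with a fold of 1.38. That value and the near-empty row are thus different measurements under 1 name, and the near-empty row gives no measure of the amount of the ascl1b transcript.

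The authors' deposited UniGene table gave an account of the other members by a separate gene model. Its fold column is named OE over CON. It runs as mutant over wild type, since 391 of its symbols beyond 1 on the log2 scale, all but 1 of those matched to a gene with at least 1000 counts, had the sign of the ratio from the Ensembl counts. In that deposited table the folds were 0.41 for neurod, 0.43 for olig2, 0.76 for ascl1a and 0.85 for neurod4. It listed 0.89 for neurod6a, 0.98 for atoh1a, 1.2 for neurog1 and 1.27 for neurod6b. Both tables come from the same 2 libraries, so they share every difference between the samples. For the same reason the authors' adjusted p-values hold no measure of the spread within a genotype. In the authors' deposited Ensembl table, 8 of the 10 members had an adjusted p of 1 from DESeq, and the lowest was that of neurod. An adjusted p under 0.05 was given there to 442 genes, none of them a member.

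**Figure D3:**
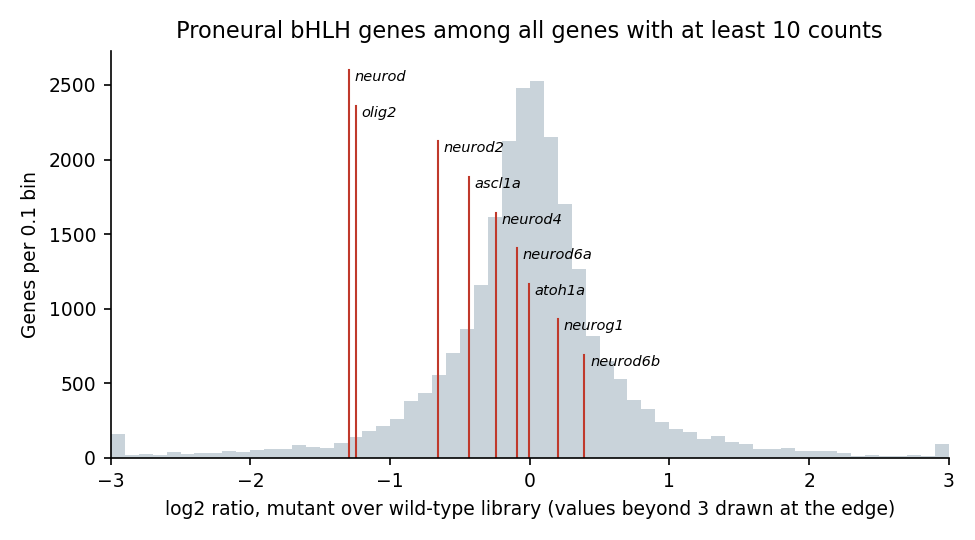
Histogram of log2 ratios, mutant over wild-type library, for the 24009 genes with at least 10 counts in bins of 0.1, with values beyond 3 drawn at the edge. Red lines mark the 9 proneural bHLH genes, staggered in height for reading only, of which neurod and olig2 stand in the left tail at −1.30 and −1.24.

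The choice of scale shifts every ratio, so the members were also set against neuronal and heart muscle genes of the same samples. The median of 27 genes of newborn neurons and synapses was −0.58 on the log2 scale, and scaling to it moved the median of all genes by 0.58. That scale sets the members beside other neuronal genes. On it neurod had a ratio of 0.607 and olig2 of 0.629, and both were still called lower, as were 2.2% of all genes. The ratio of olig2 lay close to the limit for a lower gene. The newborn neuron list alone had a median of −0.54 and the synapse list alone of −0.63. Scaling to either list alone was not tried, so whether the olig2 call depends on that choice was not tested. neurod6b and neurog1 became called higher on the neuronal scale, with ratios of 1.96 and 1.71, where 33.0% of all genes were higher. Scaled to the median of 11 heart muscle genes, a choice made after the data were seen, which moved the median of all genes by −0.70, neurod had a ratio of 0.251 and olig2 of 0.26. On that scale neurod2, neurod4 and ascl1a were called lower as well, beside 45.4% of all genes, and neurod6b and neurog1 had ratios below 1 (0.808 and 0.708). The call for neurod and for olig2 held under each of 5 other scalings, although olig2 was close to the limit on the neuronal scale. neurod6a and atoh1a were called under none of these scalings. Over all genes, 47.3% of those called were higher, against 93.7% on the neuronal scale and 3.38% on the heart muscle scale.

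The genes that flank the members were read in the same libraries. On the assembly GRCz12tu, olig2 and olig1, a gene for a related factor of the same lineage, are neighbours. olig1 had 44 counts in the library labelled mutant and 148 in the library labelled wild type, and was called lower with a ratio of 0.315 (0.219 to 0.443). The gene on the other side of olig2, gatd3, had a ratio of 1.07 (0.986 to 1.16). neurod lies between cerkl, with 294 counts in the library labelled mutant and 473 in the library labelled wild type (0.658, 0.567 to 0.762), and itprid2 (1.29, 1.25 to 1.34). Of 20 flanking genes sought, 16 had counts, and 1 of these was lower and 1 higher, beside 6.68% and 5.99% of all genes. The higher one was si:ch211-210p4.6 beside ascl1b, with 98 counts in the library labelled mutant and 27 in the library labelled wild type.

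Other bHLH genes of neural lineages went in both directions too. Of 12 with at least 10 counts, ptf1a, bhlhe23 and olig1 were lower and helt was higher, beside 6.68% and 5.99% of all genes. bhlhe23 had 186 counts in the library labelled mutant and 910 in the library labelled wild type (ratio 0.216, 0.184 to 0.254). helt, a Hes-related factor of midbrain inhibitory neurons, had 2676 counts in the library labelled mutant and 1679 in the library labelled wild type (1.69, 1.59 to 1.79). The most counted of these genes, nhlh2, was nearly level at 0.943 (0.916 to 0.970). The median of −0.15 turned to 0.42 on the neuronal scale. The atonal relative atoh1b had a ratio of 0.666 with an interval of 0.608 to 0.730 that spans the limit for a lower gene, and atoh7, the retinal ganglion cell factor, had a ratio of 0.919 (0.863 to 0.977). Of the other Olig genes, olig3 and olig4 had ratios of 1.32 and 1.19, above 1 where olig1 and olig2 were below it.

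None of the 4 E protein genes, which encode the dimer partners of the proneural factors, was called, beside 12.7% of all genes. The median log2 ratio of the 4 was −0.095, or 0.48 on the neuronal scale. On that scale 1 of the 4 was higher, beside 33.0% of all genes. All 4 were lower on the heart muscle scale, beside 45.4% of all genes. tcf3b, the most counted, had 31458 counts in the library labelled mutant and 34477 in the library labelled wild type, a ratio of 0.966 (0.951 to 0.980). The lowest ratio of the 4 was that of tcf4, named after its value was seen, at 0.588. Its interval of 0.509 to 0.679 lay below 1 and spans the limit for a lower gene. Of the 5 Id genes, id2b was lower, beside 6.68% of all genes. It had 1656 counts in the library labelled mutant and 3569 in the library labelled wild type (0.491, 0.463 to 0.521). id1, the most counted of the 5, had a ratio of 1.20 (1.19 to 1.22).

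Among the repressors of proneural genes, 10 of 15 Her and Hes genes were higher in the library labelled mutant and 0 were lower, beside 5.99% higher among all genes. Their median log2 ratio was 1.23, and it was 0.54 on the heart muscle scale, where 5 were higher and 2 lower, beside 1.59% and 45.4% of all genes. her4.2 had 3318 counts in the library labelled mutant and 749 in the library labelled wild type, a ratio of 4.69 (4.33 to 5.08), and her4.3 had a ratio of 4.13 (3.66 to 4.66). her4 and her15 are families of near-identical neighbouring copies induced by Notch, so the single values of these 6 genes are uncertain and they are not separate measurements. Of the 9 Her and Hes genes outside those copies, 4 were higher, namely her2, her3, her9 and her12, and the median log2 ratio was 0.67. The heart muscle scale moves every log2 ratio by −0.70, so the median of these 9 genes changes sign there. hes6, which antagonises other Hes proteins and promotes neurogenesis, had 13164 counts in the library labelled mutant and 13870 in the library labelled wild type, with a ratio between 0.981 and 1.03.

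None of 12 Notch ligand and receptor genes was called, beside 12.7% of all genes called in either direction. The median log2 ratio of the 12 was −0.011, or 0.017 with library totals and 0.57 on the neuronal scale. On the neuronal scale 4 were higher, beside 33.0% of all genes, and on the heart muscle scale 8 were lower, beside 45.4%. notch3, the most counted receptor gene, had 68063 counts in the library labelled mutant and 71393 in the library labelled wild type (1.01, 0.998 to 1.02). Among the Delta genes, which proneural factors induce, the ratio was 1.13 (1.11 to 1.15) for dla, 0.968 (0.951 to 0.985) for dlb and 1.34 (1.31 to 1.37) for dld. These 3 were chosen after their values were seen.

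**Figure D4:**
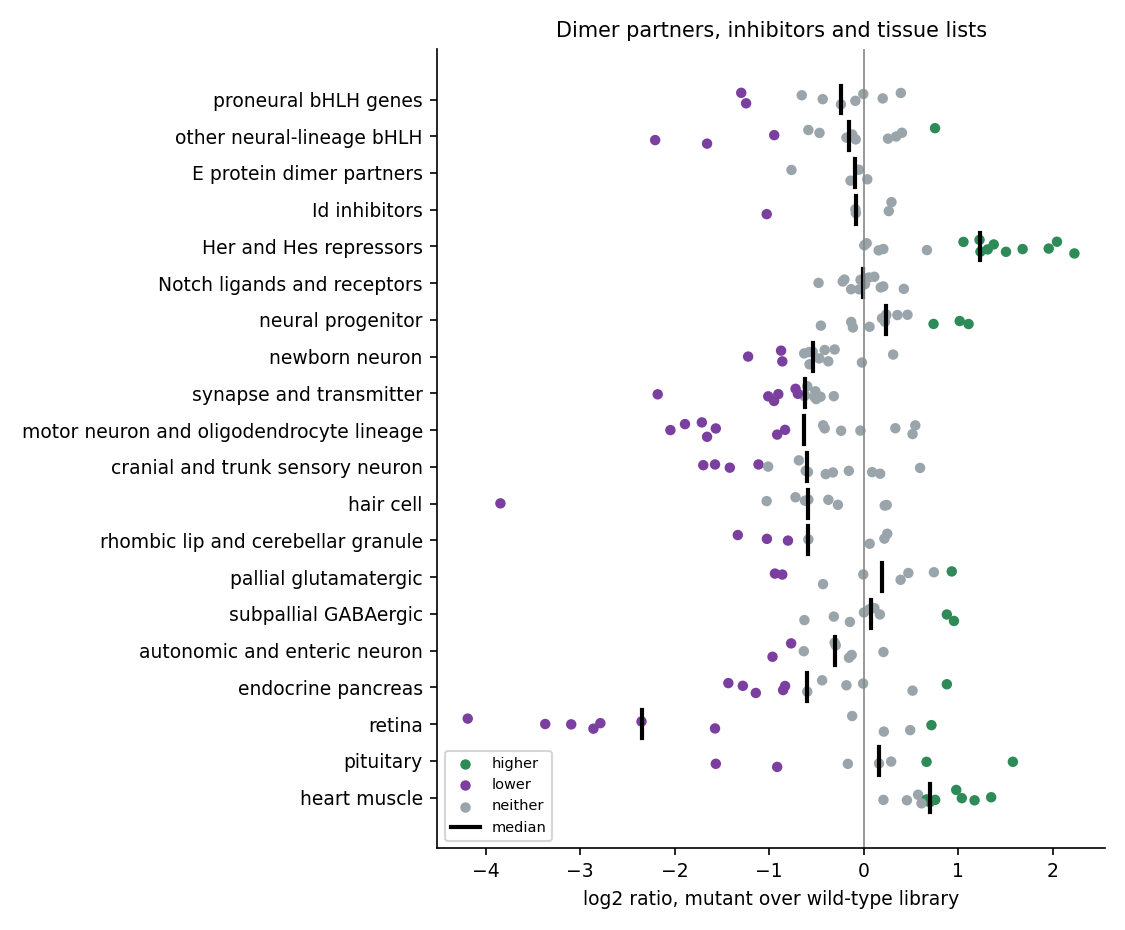
log2 ratios, mutant over wild-type library, of the proneural bHLH genes and of 19 further lists, 1 point per gene with at least 10 counts, coloured by call and scattered vertically for reading only, with a black bar at each median. The Her and Hes repressors lie furthest right at a median of 1.23, the retina list furthest left at −2.35, and the newborn neuron and synapse lists lie left of 0. A scale set on neurons would move every point right by 0.58 and bring those 2 lists near 0, and one set on heart muscle would move every point left by 0.70.

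Some genes of differentiated neurons were lower as well. Of 13 newborn neuron genes 3 were lower and 0 higher, and of 14 synapse and transmitter genes 6 were lower and 0 higher. Among all genes 6.68% were lower and 5.99% higher. The lists had medians of −0.54 and −0.63. In all, 26 of these 27 genes had ratios below 1, and none was at 0 in either library. On the neuronal scale 1 newborn neuron gene was lower and 1 higher, and 1 synapse gene was lower. Among all genes 2.2% were lower and 33.0% higher on that scale. The summed levels of the newborn neuron and synapse lists were 1658 and 358 CPM in the library labelled mutant, against 2358 and 584 CPM in the library labelled wild type. scrt2, a repressor of newborn neurons, had a ratio of 0.428 (0.415 to 0.443), an interval that overlapped those of neurod and olig2. The heart muscle list went the other way, with 7 of 11 higher and a summed level of 10430 CPM in the library labelled mutant, against 6295 CPM in the library labelled wild type. Neural progenitor genes, of which 3 of 13 were higher and 0 lower, had a median of 0.24 that turned to −0.46 on the heart muscle scale. Their summed level was 1507 CPM in the library labelled mutant and 1663 CPM in the library labelled wild type. Of these sums, the most counted gene, the radial glia gene fabp7a, held 681 and 932 CPM. It had a ratio of 0.731 (0.725 to 0.737), while 10 of the 13 genes had ratios above 1. The higher genes sox1b, sox21a and sox1a had ratios of 2.16, 2.02 and 1.67. The part of these tissue differences in the values of neurod and olig2 was not tested. The scaling above moves the log2 ratios of all genes by the same amount, so it cannot measure that part.

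Genes of the lineage in which olig2 acts were called lower or were not called. Of 14 motor neuron and oligodendrocyte genes 7 were lower and 0 higher, beside 6.68% and 5.99% of all genes, and 7 met neither condition. The median of the 14 was −0.63, and 0 were at 0 counts. On the neuronal scale 4 were lower and 3 higher, beside 2.2% and 33.0% of all genes. The progenitor genes nkx6.1, nkx6.2 and nkx2.2a had ratios of 0.976, 1.46 and 1.43, given after their values were seen. The summed level of all 14 genes was 285 CPM in the library labelled mutant and 295 CPM in the library labelled wild type. Of these sums, plp1a, a myelin protein gene and the most counted, held 143 and 113 CPM. It had a ratio of 1.26 (1.23 to 1.29). The acetylcholine transporter gene slc18a3a of motor neurons had 188 counts in the library labelled mutant and 653 in the library labelled wild type (0.305, 0.258 to 0.359).

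neurod is used by photoreceptor precursors and by endocrine cells, and the lists of both tissues held lower and higher genes. Of 11 retina genes 7 were lower and 1 higher, beside 6.68% and 5.99% of all genes. The retina list had a median of −2.35 and summed levels of 151 CPM in the library labelled mutant and 458 CPM in the library labelled wild type. six7, a gene of photoreceptor precursors, had 145 counts in the library labelled mutant and 2806 in the library labelled wild type (0.0547, 0.0460 to 0.0646). The neurod difference was smaller than that, and rx2, a gene of retinal progenitors, was higher (1.64, 1.56 to 1.73). Of 11 pancreatic genes 5 were lower, namely isl1 and the hormone genes ins, gcga, gcgb and sst2. The only higher one, arxa (1.84, 1.73 to 1.96), also stands in the subpallial list. On the neuronal scale 1 pancreatic gene was lower and 2 were higher, beside 2.2% and 33.0% of all genes. The pancreatic list had a median of −0.60 and summed levels of 149 CPM in the library labelled mutant and 194 CPM in the library labelled wild type. Of these sums, the most counted gene, pax6b, held 43.1 and 58.5 CPM. The genes isl1, nkx2.2a and arxa, which also stand in neuronal lists, held 33.0, 24.1 and 20.4 CPM in the library labelled mutant. In the library labelled wild type they held 58.7, 16.8 and 11.1 CPM. The glucagon gene gcga had 261 counts in the library labelled mutant and 746 in the library labelled wild type (0.370, 0.320 to 0.427). No gene of either list was at 0, and whether neurod differed with the retinal or pancreatic RNA was not tested.

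neurog1 and atoh1a had ratios near or above 1, or of 0.708 and 0.614 on the heart muscle scale, while lists of the cells they specify had medians below 0. Of 14 sensory neuron genes 4 were lower and 0 higher, beside 6.68% and 5.99% of all genes, and the median was −0.60. pou4f1, a factor of sensory neurons, had 659 counts in the library labelled mutant and 2262 in the library labelled wild type (0.308, 0.282 to 0.336). Ratios were below 1 for 11 of the 14 and above 1 for 3. Those 3, named after their values were seen, were trpa1b (1.51), p2rx3b (1.13) and prdm12b (1.06). Of 9 hair cell genes pou4f3 alone was lower, with 22 counts in the library labelled mutant and 341 in the library labelled wild type (0.0683, 0.0422 to 0.105), and the median was −0.59. Of these 9, 7 had ratios below 1. The other 2, cdh23 (1.17) and pcdh15a (1.18), were also named after their values were seen. Of 7 rhombic lip and granule cell genes barhl1a, barhl1b and barhl2 were lower and 0 were higher, and barhl1a had a ratio of 0.397 (0.371 to 0.425). Of the zic genes of that list, zic2a, the most counted, had a ratio of 1.04 (1.01 to 1.08), zic1 of 1.16 and zic4 of 1.19. On the neuronal scale 1 rhombic lip gene was lower and 3 were higher, beside 2.2% and 33.0% of all genes. The median was −0.59 here too, because atoh1b stands in both lists and is the middle value of each. On the neuronal scale the medians of the motor neuron, sensory neuron, hair cell, rhombic lip and pancreatic lists lay between −0.055 and −0.0096.

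With TMM scaling, the medians of the lists nearest to neurod6a, neurod6b and ascl1a did not share a sign. Of 8 pallial genes 1 was higher and 2 were lower, with a median of 0.19, or −0.51 on the heart muscle scale. Of 10 subpallial genes 2 were higher and 0 lower, and the median of 0.073 turned to −0.63 on the heart muscle scale. Of 8 autonomic and enteric genes phox2a (0.512, 0.428 to 0.610) and phox2bb (0.587, 0.543 to 0.635), factors required for autonomic neurons, were lower, and the median of −0.30 turned to 0.27 on the neuronal scale. Of 7 pituitary genes 2 were higher and 2 lower, beside 5.99% and 6.68% of all genes. The lower ones, lhx3 and lhx4, also stand in the motor neuron list. The pituitary median of 0.16 turned to −0.54 on the heart muscle scale. Other called genes are shared between lists too, such as isl1 (motor neuron and pancreatic), isl2b (sensory neuron and retina) and arxa (pancreatic and subpallial). The counts of the lists are therefore not separate.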

How the data were processed

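Heart RNA was purified on RNeasy columns and sequenced from Illumina TruSeq libraries, per the labels' protocols. TopHat, DESeq and Zv9 are named, without versions, in the submitters' processing notes. Deposited values of the count table are raw counts for each Ensembl gene. The line that names no gene held 9.17% of counts in the library labelled mutant and 9.21% in the library labelled wild type, and was left out. The authors' deposited Ensembl comparison gives a fold ratio, its log2 value and an adjusted p-value, per the file headers. The deposited UniGene comparison gives a fold ratio and its log2 value. Names of 6 further columns of values per sample match no label, and these were left out. Neither the counting tool nor the annotation release or use of strand is given in the sources used here.

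TMM scaling used edgeR 4.0.16 under R 4.3.3 (effective sizes 140420264 and 148591398 for the libraries labelled mutant and wild type), and log2 ratios used 0.5 added to each count. Intervals came from scipy 1.17.1. The steps were tested on simulated counts with counting error alone, so that test does not cover other differences between the libraries. Named genes were every member and, per list, up to 2 higher and 2 lower genes by interval bound and the most counted one. Exceptions are said in the text or are kctd10, the heart and flanking genes, the atonal and Olig relatives and the other called genes that a sentence counts, named after their values were seen. Of 191 symbols in 18 lists 177 matched, and 1 further gene of the retina list is not reported here. The members and lists were chosen with earlier results of these data known. Other settings tried were library totals, upper-quartile and DESeq2 1.42.0 size factors, scaling to neuronal or heart muscle genes, other limits and the authors' folds. Sequences were not used here.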

Additional observations from a re-analysis of the deposited data

How the results depend on the processing

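Under DESeq2 size factors, library totals, upper-quartile factors, a 2-fold limit, a 99% interval, a minimum of 50 counts and no minimum, 2 members were lower and 0 higher. Scaling to newborn neuron and synapse genes gave 2 higher members beside 2 lower ones and turned the median log2 ratio of the set to 0.33, against −0.24. Scaling to heart muscle genes, chosen after the data were seen, gave 5 lower members and a median of −0.94. These shifts follow from the construction of both scales. The ratio of ascl1a crossed 1 on the neuronal scale (1.10), as did that of neurod4 (1.26), neurod6a (1.40) and atoh1a (1.49). On the heart muscle scale neurod6b (0.808) and neurog1 (0.708) crossed it. The mean in place of the median was −0.37. Over all genes the neuronal scale gave 7926 higher and 529 lower genes and the heart muscle scale 382 and 10910, against 1439 and 1603. A 2-fold limit gave 632 and 677. Among the 9 members with at least 10 counts depth limits neurod2 most, with 61 and 102 counts in the libraries labelled mutant and wild type. No paired analysis was possible because each genotype has 1 library, and for the same reason no library could be left out.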
